A study of Mus musculus with 42 samples.

Results

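The 42 genes described here are classical targets of type I interferon, taken as a list of symbols chosen with earlier results of these data known. All 42 were found once among the 55573 gene IDs of both deposited count tables and passed the low-count filter in both arms, so every member was tested. Type I interferons (alpha and beta) bind the receptor pair Ifnar1 and Ifnar2, whose kinases Jak1 and Tyk2 activate a complex, ISGF3, that includes Stat2 and Irf9. It binds the interferon-stimulated response element and drives the genes listed here. In liver, hepatocytes as well as Kupffer cells and endothelial cells respond to interferon, and a low tonic level of these transcripts is found without infection. Several members also feed back on the pathway, Irf7 by driving interferon genes and Usp18 by blocking the receptor.

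The study measured liver mRNA of male C57B6/J mice to examine crosstalk of glucocorticoid and androgen signalling. The acute arm had 4 groups: vehicle, CORT (corticosterone, the chief mouse glucocorticoid), ENZA (enzalutamide, which blocks the androgen receptor) and CORT+ENZA. The chronic arm had vehicle, CORT and CORT+ENZA, and no chronic library was labelled as enzalutamide alone. Each of the 7 groups held 6 libraries, while the labels used here give no age, dose or length of treatment. Each library carries a mouse label of its own, but the labels name no separate experiments, so p-values measure the spread between these samples. Acute RNA was extracted with an RNeasy kit and chronic RNA with a NucleoSpin kit, so that duration and kit cannot be told apart. Acute libraries summed to between 18674151 and 20464521 gene counts, and chronic ones to between 15381724 and 19581723. Reads with more than 1 alignment were 9.34 to 12.8% of an acute library and 18.6 to 22.7% of a chronic one. The liver label was checked against 6 hepatocyte markers, which summed to 58164 to 79654 CPM in the lowest group, chronic CORT+ENZA.

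Promoter sequences were searched for motifs near the starts, which only some of the members held. The core of the response element was searched as GAAA, any 2 bases, GAAA on both strands, in windows from 250 bases before to 50 bases after each RefSeq start (GRCm38.p6). The 33 members with an entry had 40 windows, of which 14 (35%) held the core, against 3.44% of all 32851 windows. These 14 belonged to 13 members. The gamma-activated site, TTC, any 3 bases, GAA, lay in 7 of the 40 windows (17.5%), 1 in each of 7 members, against 8.30% of all windows. Some windows hold both motifs (149 of all), and their letters can overlap, as in Bst2. The stretches below end before the transcription start and are written 5′ to 3′ along the gene, with every match in capitals. They show 5 members that changed strongly in the chronic arm (Isg15, Ifit1, Ifit3, Oas3 and Rsad2) and the 2 that were called in no comparison (Stat2, which holds the response element core, and Irf1, which holds a gamma-activated site). Their positions are chr4:156200860-156200911 (minus strand) for Isg15, chr19:34640770-34640828 (plus strand) for Ifit1, chr19:34583358-34583431 (plus strand) for Ifit3, chr5:120777710-120777749 (minus strand) for Oas3, chr12:26456548-26456587 (minus strand) for Rsad2, chr10:128270261-128270300 (plus strand) for Stat2 and chr11:53769909-53769947 (plus strand) for Irf1.
Isg15: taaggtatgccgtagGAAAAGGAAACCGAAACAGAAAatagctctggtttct
Ifit1: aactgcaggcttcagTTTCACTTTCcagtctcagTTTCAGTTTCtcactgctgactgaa
Ifit3: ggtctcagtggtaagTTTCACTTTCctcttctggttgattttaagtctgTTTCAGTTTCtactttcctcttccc
Oas3: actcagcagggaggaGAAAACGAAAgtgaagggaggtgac
Rsad2: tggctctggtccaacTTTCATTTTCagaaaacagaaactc
Stat2: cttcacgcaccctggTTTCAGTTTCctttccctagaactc
Irf1: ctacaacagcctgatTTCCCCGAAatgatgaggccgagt

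Isg15 held 3 overlapping cores within one run, and Ifit1 and Ifit3 held 2 separate cores each, written on the opposite strand. The stretch of Ifit3b is letter for letter that of Ifit3. Both genes lie in the Ifit cluster on chromosome 19, with Ifit2 at chr19:34550694-34576419, Ifit3 at chr19:34583531-34588731, Ifit3b at chr19:34607970-34613401 and Ifit1 at chr19:34640871-34650009. Oas1a (chr5:120896256-120907521), Oas2 (chr5:120730333-120749853) and Oas3 (chr5:120753098-120777661) form a second cluster on chromosome 5, and Rsad2 (chr12:26442746-26456452) and Cmpk2 (chr12:26469204-26479837) are neighbours on chromosome 12. A match is a run of letters only, and no match does not bear on binding elsewhere.

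The members' level in a mouse was summarised as a score, the mean of log2 CPM over all 42 (CPM, counts scaled by library size after TMM normalization). In the chronic arm the score was 3.68 ± 0.13 (SD, n = 6) with vehicle, 2.73 ± 0.26 with CORT and 4.20 ± 0.41 with CORT+ENZA. The CORT mice (2.42 to 3.11) lay below every vehicle mouse (3.47 to 3.84), and the CORT+ENZA mice (3.89 to 5.02) lay above every vehicle mouse. In the acute arm the score was 3.76 ± 0.18 with vehicle, 3.62 ± 0.15 with CORT, 4.00 ± 0.26 with ENZA and 3.69 ± 0.13 with CORT+ENZA. The 4 acute groups overlapped. In each arm 1 mouse had a high score for its group. Chronic CORT+ENZA mouse 18 had a score of 5.02 against 3.89 to 4.18 in the other 5 (mean 4.04 ± 0.10), and acute ENZA mouse L29A had 4.46 against 3.75 to 4.08 (mean 3.902 ± 0.14). By the outlier limit given in a later section, the score of mouse 18 was listed and that of L29A was not. Both mice are shown apart below.

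**Figure D1:**
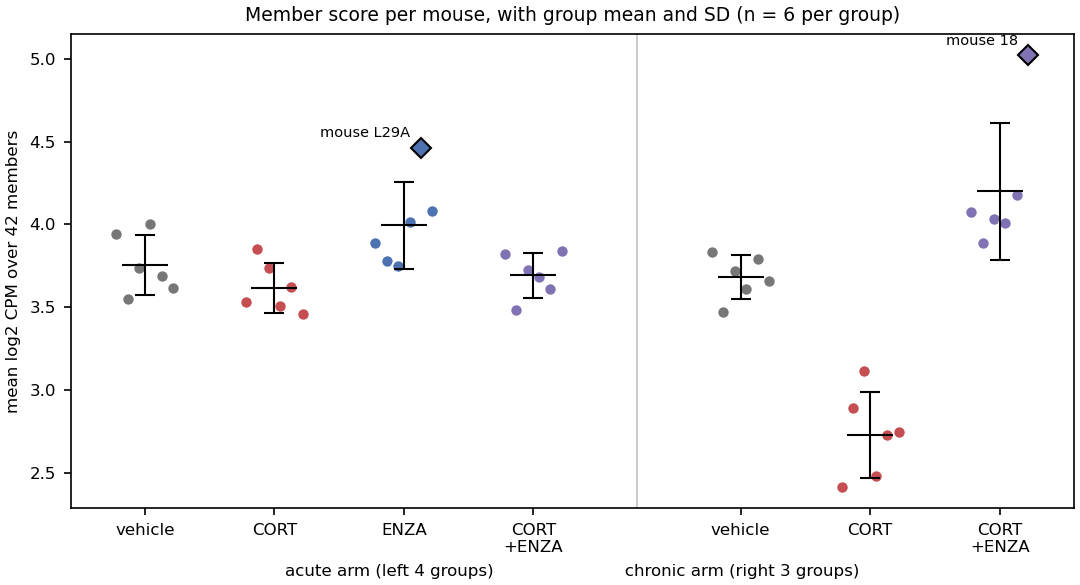
Member score (mean log2 CPM over 42 members) of each mouse by group, with the mean and SD of 6 mice as bars. The 6 chronic CORT mice lie between 2.42 and 3.11, below all other mice of the chronic arm, and the diamonds mark L29A at 4.46 and mouse 18 at 5.02.

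Per kilobase of exon, the members span a wide range of levels. In chronic vehicle livers the lowest was Oas3 at 0.167 CPM per kb and the highest Bst2, a membrane tether of virus particles, at 138 CPM per kb, with a median of 3.55 over the members. The same 2 genes were the ends of the range in all 7 groups, and the members' median per kilobase was 2.41 with chronic CORT and 5.46 with chronic CORT+ENZA. Tests below used edgeR's quasi-likelihood test with Benjamini-Hochberg adjustment over all genes of a comparison. A gene is called at an adjusted p under 0.05, and log2 fold changes are given with their standard error (± SE).

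Most members were lower with chronic CORT. Of the 42, 31 were called lower and 0 higher against chronic vehicle, where 9.29% of all 13099 tested genes were called lower. The members were chosen with earlier results of these data known, so such shares describe them and are no independent test. The members' median log2 fold change was -0.94, against -0.01 over all genes tested, and 40 of 42 lay below 0. The largest fall was that of Usp18 (-2.21), and 20 members changed by a factor of 2 or more. In 21 members every CORT mouse lay below every vehicle mouse, which held for 4.55% of all genes. In bulk liver, fewer cells of a type and less RNA per cell cannot be told apart. Leaving out mouse 18 left 32 called lower, with a median of -0.93.

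With ENZA added to chronic CORT the members were higher than with CORT alone. Here 39 of 42 were called higher and 0 lower, with Irf1, Stat2 and Trim25 not called, where 6.99% of all genes were called higher. The median was 1.38 against 0.00 over all genes, and the values ranged from 0.10 for Trim25 to 3.32 for Oas3, which was at most at 0.433 CPM with CORT. In 35 members the groups did not overlap, against 3.53% of all genes. Without mouse 18 the count was 38 (Sp100 was not called) and the median 1.09.

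Chronic CORT+ENZA also exceeded vehicle. Of the members, 20 were called higher and 0 lower, where 10.3% of all genes were called higher, and 41 of 42 lay above 0. The median was 0.56, against -0.01 over all genes, and the highest value that of Ifit1 at 1.43. In 15 members every CORT+ENZA mouse lay above every vehicle mouse, against 4.73% of all genes. Leaving out mouse 18 made this difference smaller: 17 members were called, without Trim25 (0.30, adjusted p 0.0705), Cmpk2 (0.47, adjusted p 0.0568) and Rtp4 (0.39, adjusted p 0.0637), and the median was 0.37. The 3 chronic comparisons share their groups in pairs, so their values for a member are not independent of each other.

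**Figure D2:**
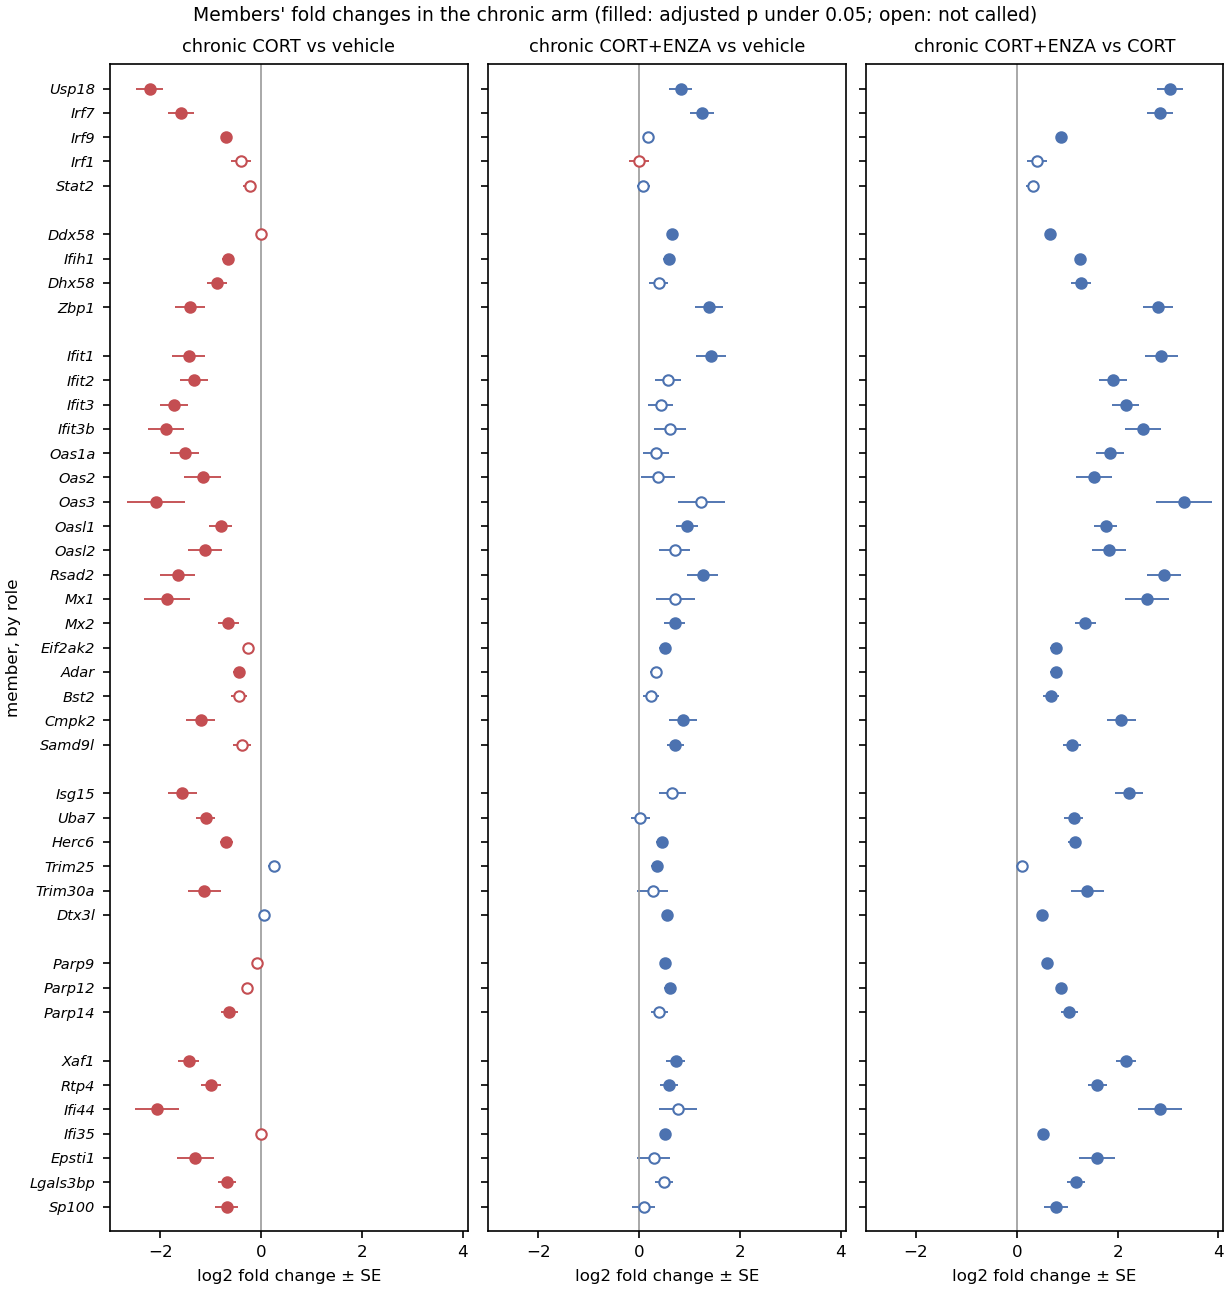
Log2 fold change ± SE of each of the 42 members, by role, in the 3 chronic comparisons, with called values filled. With CORT 31 members are called lower, with CORT+ENZA against vehicle 20 are called higher and against CORT 39 are called higher.

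Among the 5 regulators, 3 were called lower with chronic CORT and 3 higher with CORT+ENZA against CORT, and Usp18 and Irf7 moved most. Usp18 removes Isg15 from proteins and blocks the interferon receptor. Its level was 9.45 to 14.8 CPM (median 10.9) in vehicle mice, 1.54 to 4.01 (median 2.04) with CORT and 12.9 to 36.3 (median 17.4) with CORT+ENZA. No CORT mouse reached the lowest vehicle mouse, and vehicle mouse 10 was the only vehicle mouse above the lowest CORT+ENZA mouse. Usp18 was called lower with CORT (-2.21 ± 0.26, adjusted p = 1.45e-05) and was higher with CORT+ENZA than with CORT (3.04 ± 0.26, adjusted p = 4.28e-07) and than with vehicle (0.83 ± 0.23, adjusted p = 0.0165). Without mouse 18 the last value was 0.58 (adjusted p = 0.0300). Irf7, the transcription factor that amplifies interferon alpha genes, stood at 30.3 to 49.0 CPM (median 39.0) in vehicle mice, 9.76 to 20.6 (median 11.8) with CORT and 62.0 to 183 (median 84.1) with CORT+ENZA. The 3 groups did not overlap in any pair. Its log2 fold changes were -1.59 ± 0.25 with CORT (adjusted p = 0.000312), 1.24 ± 0.24 with CORT+ENZA against vehicle (adjusted p = 0.00132) and 2.83 ± 0.26 against CORT (adjusted p = 1.37e-06).

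Irf9, the DNA-binding subunit of ISGF3, stood at 29.2 to 37.8 CPM (median 34.2) in vehicle mice, 15.6 to 28.4 (median 20.7) with CORT and 36.4 to 42.8 (median 38.0) with CORT+ENZA. The CORT mice lay below all others, while vehicle and CORT+ENZA overlapped. Its change with CORT was -0.69 ± 0.11 (adjusted p = 0.000214), and it was higher with CORT+ENZA than with CORT by 0.88 ± 0.11 (adjusted p = 2.44e-05), with 0.19 ± 0.11 against vehicle (adjusted p = 0.237). Stat2, the ISGF3 subunit that carries its activation domain, and Irf1, a factor induced chiefly by interferon gamma, were not called in any of the 11 comparisons. Stat2 was at 47.2 to 81.5 CPM (median 59.4) in vehicle mice, 46.7 to 59.0 (median 51.6) with CORT and 52.9 to 79.9 (median 65.5) with CORT+ENZA. All 3 groups overlapped, and CORT+ENZA against CORT gave 0.31 ± 0.13 (adjusted p = 0.116). Irf1 was at 20.3 to 46.4 CPM (median 30.99) in vehicle mice, 21.7 to 27.2 (median 24.7) with CORT and 26.8 to 38.2 (median 33.1) with CORT+ENZA. Its vehicle group was split, with mice 10, 11 and 12 at 40.8 to 46.4 CPM and mice 13, 14 and 15 at 20.3 to 21.2 CPM, and the labels name no batch. Against this spread CORT gave -0.40 ± 0.20 (adjusted p = 0.181). Other members also split between these vehicle mice. Irf9 and Mx2 did so in the same direction, and Stat2, Trim25, Adar, Parp14 and Oasl1 in the other. The share of all genes that split in this way was not computed. Stat2 was at 47.2 to 52.0 CPM in mice 10 to 12 and 66.8 to 81.5 CPM in mice 13 to 15. With CORT+ENZA Stat2 was at 52.9 to 61.0 CPM in mice 4 to 6 and 69.9 to 79.9 CPM in mice 16 to 18. With CORT, mice 1 to 3 and 25 to 27 overlapped in Stat2.

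All 4 sensors of foreign nucleic acid were called higher with CORT+ENZA than with CORT, and 3 were called lower with CORT. Zbp1, a sensor of left-handed nucleic acid that can start necroptosis, was at 3.14 to 4.34 CPM (median 3.59) in vehicle mice, 0.996 to 1.77 (median 1.36) with CORT and 5.38 to 21.7 (median 7.28) with CORT+ENZA. The 3 groups were fully separate. The log2 fold change was -1.41 ± 0.30 with CORT (adjusted p = 0.00313), 1.39 ± 0.27 with CORT+ENZA against vehicle (adjusted p = 0.00128) and 2.80 ± 0.30 against CORT (adjusted p = 5.64e-06). Ifih1 (MDA5), a sensor of long double-stranded RNA, was at 34.2 to 41.98 CPM (median 36.5) in vehicle mice, 17.2 to 30.5 (median 24.6) with CORT and 51.4 to 65.8 (median 55.0) with CORT+ENZA. These groups were also separate, and the smaller changes of -0.66 ± 0.11, 0.59 ± 0.11 and 1.25 ± 0.11 in the same order were called, at adjusted p of at most 0.000559. Dhx58 (LGP2), a related helicase, was at 11.7 to 19.9 CPM (median 15.7) in vehicle mice, 5.71 to 12.2 (median 8.11) with CORT and 15.4 to 34.1 (median 18.5) with CORT+ENZA. Its CORT mice overlapped the vehicle mice at the upper end, and it was called lower with CORT (-0.88 ± 0.20) and higher with CORT+ENZA against CORT (1.27 ± 0.19), not against vehicle (0.39 ± 0.19, adjusted p = 0.169). Ddx58 (RIG-I), which senses short RNA with a 5′ triphosphate, was at 28.5 to 36.1 CPM (median 29.9) in vehicle mice, 25.8 to 36.6 (median 30.6) with CORT and 43.4 to 63.1 (median 45.9) with CORT+ENZA. CORT and vehicle overlapped with a difference of 0.00 ± 0.10 (adjusted p = 0.996), while every CORT+ENZA mouse lay above both groups (0.66 ± 0.10 against vehicle, adjusted p = 9.76e-05, and 0.67 ± 0.10 against CORT, adjusted p = 0.000191).

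**Figure D3:**
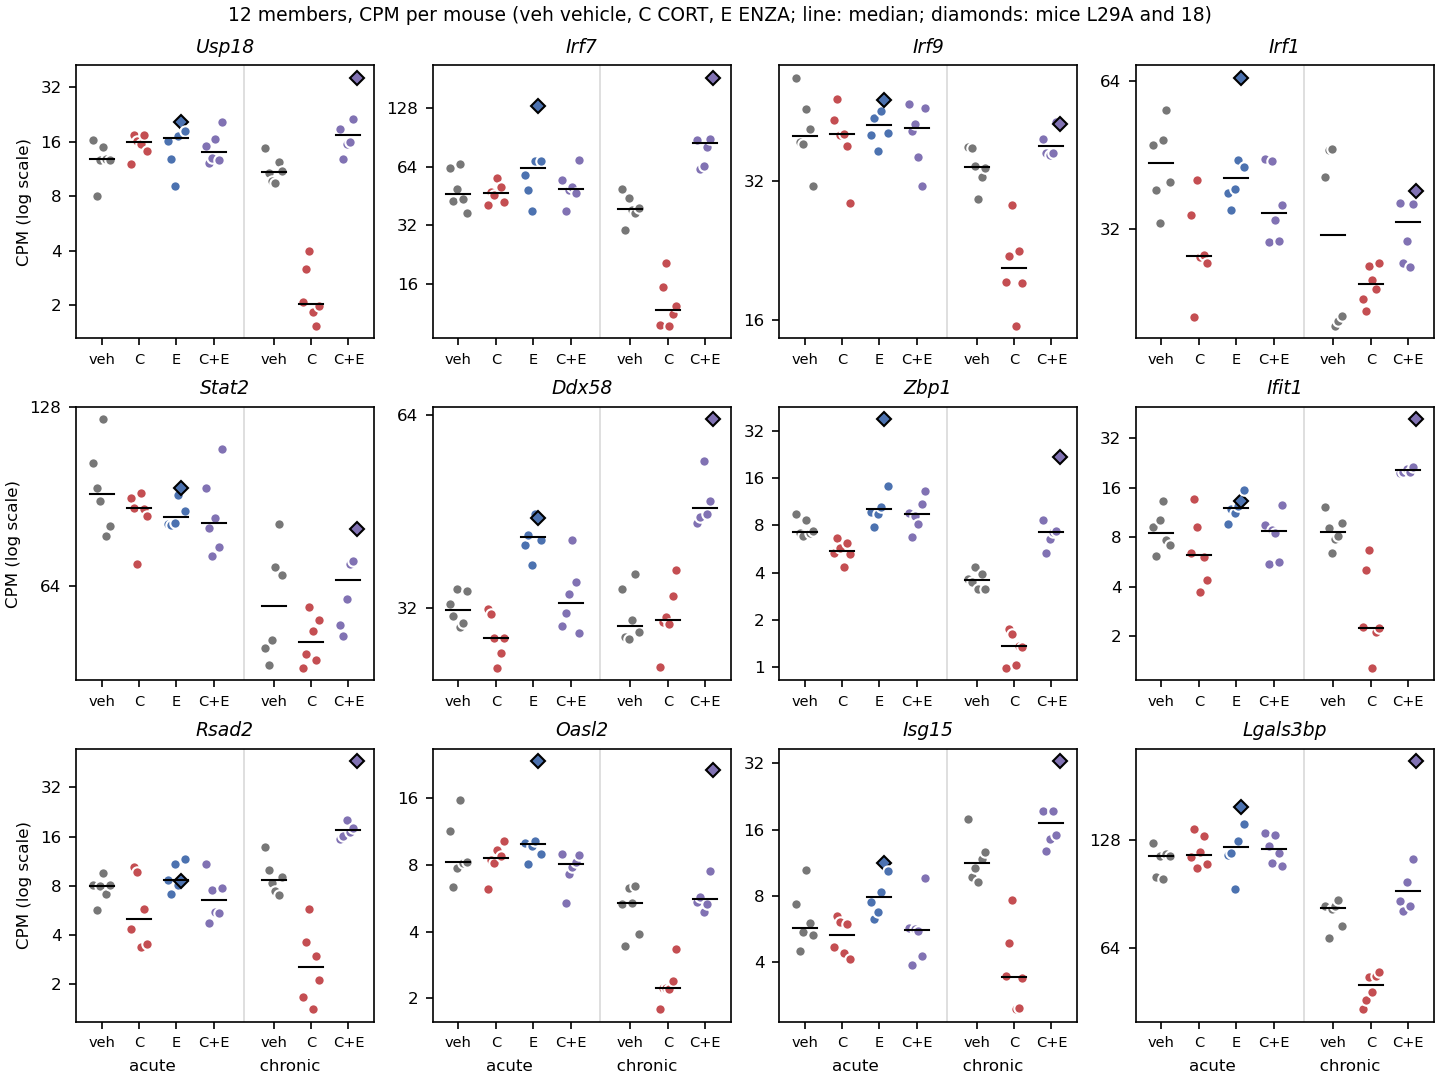
CPM per mouse on a log axis for 12 members in the 7 groups (acute on the left, chronic on the right), with the group median as a line and mice L29A and 18 as diamonds. Usp18 stands at 1.54 to 4.01 CPM in chronic CORT mice and 12.9 to 36.3 CPM in chronic CORT+ENZA mice, while Irf1 and Stat2 overlap in all chronic groups.

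All 17 effectors were called higher with chronic CORT+ENZA than with CORT, 14 were called lower with CORT, and 7 were called higher with CORT+ENZA than with vehicle. Their medians were 1.86, -1.20 and 0.71. The Ifit proteins bind viral RNA that lacks host cap methylation and block its translation. Ifit1 was at 6.36 to 12.3 CPM (median 8.59) in vehicle mice, 1.28 to 6.72 (median 2.24) with CORT and 19.5 to 41.7 (median 20.4) with CORT+ENZA. CORT mouse 3 was the only CORT mouse to reach the vehicle range, and 5 CORT+ENZA mice were close together at 19.5 to 21.3 CPM, with mouse 18 at 41.7. Ifit1 changed by -1.44 ± 0.32 with CORT (adjusted p = 0.00519), by 1.43 ± 0.30 with CORT+ENZA against vehicle (adjusted p = 0.00253) and by 2.87 ± 0.32 against CORT (adjusted p = 1.55e-05). The other Ifit genes of the list lie in the same cluster. Ifit2 was at 3.56 to 5.17 CPM (median 4.61) in vehicle mice, 1.31 to 2.44 (median 1.58) with CORT and 3.70 to 14.5 (median 5.44) with CORT+ENZA. Ifit3 was at 11.6 to 18.3 CPM (median 14.1) in vehicle mice, 2.04 to 7.10 (median 3.75) with CORT and 15.2 to 33.6 (median 16.4) with CORT+ENZA. Ifit3b was at 2.48 to 5.35 CPM (median 3.35) in vehicle mice, 0.183 to 1.84 (median 0.929) with CORT and 3.64 to 9.75 (median 4.80) with CORT+ENZA. In these 3 genes CORT mice lay below all vehicle mice and all CORT+ENZA mice, with log2 fold changes with CORT of -1.33 ± 0.28, -1.73 ± 0.27 and -1.89 ± 0.36. None of the 3 was called against vehicle with CORT+ENZA. Ifit3 and Ifit3b share 51.2% and 45.0% of their 50-base stretches, so the split of reads between them is uncertain.

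The oligoadenylate synthetases make the second messenger that activates RNase L. Oas1a was at 1.79 to 4.84 CPM (median 3.55) in vehicle mice, 0.9003 to 1.60 (median 1.23) with CORT and 2.92 to 8.87 (median 3.85) with CORT+ENZA, and 57.6% of its stretches also occur in Oas1g, so its level is uncertain. Oas2 was at 1.69 to 3.57 CPM (median 3.06) in vehicle mice, 0.921 to 2.14 (median 1.10) with CORT and 1.90 to 9.15 (median 2.63) with CORT+ENZA. Oas3 was at 0.552 to 2.14 CPM (median 1.06) in vehicle mice, 0.159 to 0.433 (median 0.247) with CORT and 1.05 to 8.66 (median 1.62) with CORT+ENZA. In Oas1a and Oas3 the CORT mice lay below both other groups, whereas in Oas2 the highest CORT mouse, 25, reached the vehicle and CORT+ENZA ranges. Oas3 had the largest rise of any member with CORT+ENZA against CORT (3.32 ± 0.55, adjusted p = 0.000507), and mouse 18 (8.66 CPM) stood at 5.39 times the mean of the other 5. This rise starts from CORT levels of few reads, as 3 counts make 0.153 to 0.195 CPM in a chronic library. The log2 fold changes of Oas1a, Oas2 and Oas3 with CORT were -1.52 ± 0.28, -1.16 ± 0.36 and -2.09 ± 0.58, with adjusted p of 0.000968, 0.0306 and 0.0164. Oasl1 and Oasl2 are relatives of these enzymes, of which Oasl1 lacks their activity and restrains translation of Irf7. Oasl1 was at 9.87 to 15.6 CPM (median 12.8) in vehicle mice, 3.77 to 12.3 (median 6.78) with CORT and 18.1 to 32.8 (median 24.9) with CORT+ENZA. Oasl2, which keeps the activity, was at 3.45 to 6.40 CPM (median 5.37) in vehicle mice, 1.78 to 3.33 (median 2.22) with CORT and 4.90 to 21.4 (median 5.59) with CORT+ENZA. CORT mice overlapped vehicle mice in Oasl1 and not in Oasl2, and both genes separated CORT from CORT+ENZA. Oasl1 was called in all 3 comparisons (-0.80 ± 0.23, 0.96 ± 0.22 and 1.76 ± 0.23), and Oasl2 with CORT (-1.12 ± 0.33, adjusted p = 0.0257) and CORT+ENZA against CORT (1.83 ± 0.33, adjusted p = 0.00129).

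Rsad2 (viperin) makes a chain-terminating nucleotide, and its neighbour Cmpk2 supplies the substrate. Rsad2 was at 7.06 to 13.9 CPM (median 8.68) in vehicle mice, 1.40 to 5.74 (median 2.55) with CORT and 15.5 to 46.3 (median 17.6) with CORT+ENZA. Cmpk2 was at 4.34 to 8.33 CPM (median 5.21) in vehicle mice, 1.66 to 3.52 (median 2.37) with CORT and 6.49 to 23.1 (median 8.25) with CORT+ENZA. For Rsad2 all 3 groups were separate, and for Cmpk2 the CORT mice lay below the others while vehicle and CORT+ENZA overlapped. Rsad2 changed by -1.66 ± 0.34 with CORT (adjusted p = 0.00275), 1.26 ± 0.31 with CORT+ENZA against vehicle (adjusted p = 0.00846) and 2.92 ± 0.34 against CORT (adjusted p = 2.44e-05). Cmpk2 changed by -1.20 ± 0.29, 0.87 ± 0.27 and 2.07 ± 0.29. The Mx genes encode dynamin-like GTPases that trap viral capsids. The Mx1 allele of C57BL/6 mice is defective, and Mx2 is annotated as a polymorphic pseudogene. Mx1 was at 0.957 to 1.66 CPM (median 1.21) in vehicle mice, 0.157 to 0.758 (median 0.278) with CORT and 1.05 to 5.42 (median 1.38) with CORT+ENZA. Mx2 was at 3.59 to 6.91 CPM (median 4.58) in vehicle mice, 2.22 to 3.78 (median 2.95) with CORT and 5.62 to 13.0 (median 6.85) with CORT+ENZA. Mx1 separated CORT from both other groups, and Mx2 separated CORT from CORT+ENZA. Mx1 changed by -1.86 ± 0.46 with CORT and 2.58 ± 0.44 with CORT+ENZA against CORT, and Mx2 by -0.65 ± 0.21, 1.36 ± 0.21 and, against vehicle, 0.71 ± 0.20, all called.

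The other 4 effectors changed less between CORT and CORT+ENZA. Eif2ak2 (PKR), a kinase that stops translation when it binds double-stranded RNA, was at 14.8 to 22.4 CPM (median 20.3) in vehicle mice, 14.0 to 18.96 (median 16.4) with CORT and 24.3 to 36.7 (median 26.9) with CORT+ENZA. Adar, which edits adenosine to inosine in double-stranded RNA, was at 20.4 to 31.3 CPM (median 27.2) in vehicle mice, 15.7 to 22.4 (median 20.1) with CORT and 28.9 to 43.4 (median 32.2) with CORT+ENZA. Bst2 was at 111 to 139 CPM (median 124) in vehicle mice, 79.0 to 113 (median 83.9) with CORT and 97.9 to 228 (median 146) with CORT+ENZA. In all 3 CORT mice overlapped vehicle mice, and only Adar was called lower with CORT (-0.44 ± 0.12, adjusted p = 0.0145), with Bst2 at -0.44 ± 0.16 (adjusted p = 0.0571) and Eif2ak2 at -0.25 ± 0.11 (adjusted p = 0.117). Samd9l, an antiviral and antiproliferative protein, was at 15.8 to 22.6 CPM (median 17.2) in vehicle mice, 8.80 to 17.5 (median 14.9) with CORT and 22.9 to 46.5 (median 26.9) with CORT+ENZA. Eif2ak2 and Samd9l were called higher with CORT+ENZA than with vehicle (0.51 ± 0.11 and 0.72 ± 0.17), with no overlap. Against CORT all 4 were called higher, at 0.77 ± 0.11, 0.77 ± 0.12, 0.68 ± 0.16 and 1.10 ± 0.18. Of Adar's stretches 20.1% occur in Chrnb2, whose exons overlap it on the other strand.

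Isg15 is a ubiquitin-like protein that is joined to other proteins, with Uba7 as its activating enzyme and Herc6 as its main mouse ligase. Isg15 was at 9.28 to 17.8 CPM (median 11.3) in vehicle mice, 2.44 to 7.69 (median 3.42) with CORT and 12.8 to 32.8 (median 17.2) with CORT+ENZA. Uba7 was at 8.97 to 16.3 CPM (median 12.3) in vehicle mice, 3.904 to 8.99 (median 5.72) with CORT and 11.0 to 18.2 (median 11.8) with CORT+ENZA. Herc6 was at 6.64 to 9.87 CPM (median 8.65) in vehicle mice, 4.25 to 6.50 (median 5.27) with CORT and 10.2 to 15.4 (median 11.2) with CORT+ENZA. In Isg15 and Herc6 the CORT mice lay below all vehicle mice, in Uba7 the highest CORT mouse overlapped the lowest vehicle mouse, and in Herc6 the CORT+ENZA mice also lay above all vehicle mice. All 3 conjugation genes were called lower with CORT (Isg15 -1.56 ± 0.28, adjusted p = 0.000911, Uba7 -1.10 ± 0.19 and Herc6 -0.69 ± 0.13) and higher with CORT+ENZA than with CORT (Isg15 2.22 ± 0.28, adjusted p = 4.44e-05, Uba7 1.13 ± 0.19 and Herc6 1.15 ± 0.13). Against vehicle only Herc6 was called among them (0.46 ± 0.13, adjusted p = 0.0148), while Isg15 gave 0.66 ± 0.26 (adjusted p = 0.0874) and Uba7 0.03 ± 0.18 (adjusted p = 0.932). Herc6 shares 23.8% of its stretches with the predicted gene Gm45193 and is uncertain.

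Of the ubiquitin ligases, Trim30a, which dampens Toll-like receptor signalling, was at 3.17 to 8.49 CPM (median 6.64) in vehicle mice, 1.95 to 3.79 (median 3.13) with CORT and 4.80 to 18.4 (median 5.59) with CORT+ENZA. The CORT mice overlapped the vehicle mice and lay below all CORT+ENZA mice. It was called lower with CORT (-1.13 ± 0.33, adjusted p = 0.0219) and higher with CORT+ENZA against CORT (1.40 ± 0.33; 0.92 without mouse 18). Trim25, which activates RIG-I, was at 67.3 to 106 CPM (median 87.5) in vehicle mice, 89.8 to 111 (median 105) with CORT and 86.9 to 130.3 (median 107) with CORT+ENZA. Its groups overlapped throughout, and its one call was that of CORT+ENZA against vehicle (0.35 ± 0.12, adjusted p = 0.0399). Dtx3l, a ligase that works as a dimer with Parp9, was at 50.5 to 62.9 CPM (median 55.2) in vehicle mice, 46.5 to 63.9 (median 60.2) with CORT and 69.1 to 90.7 (median 82.7) with CORT+ENZA. Dtx3l and Parp9 share 458 bases of antisense exon, so reads between them cannot be assigned here without the strand setting. Dtx3l was not called with CORT (0.06 ± 0.09, adjusted p = 0.7001), and every CORT+ENZA mouse lay above the other 2 groups (0.55 ± 0.09 against vehicle and 0.49 ± 0.09 against CORT).

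The 3 ADP-ribosyltransferases, which attach ADP-ribose to proteins, were called higher with CORT+ENZA than with CORT, and 1 of them, Parp14, was called lower with CORT. Parp9 was at 46.3 to 59.1 CPM (median 50.3) in vehicle mice, 43.7 to 57.6 (median 47.4) with CORT and 63.2 to 83.4 (median 73.2) with CORT+ENZA. Parp12 was at 29.9 to 47.9 CPM (median 43.3) in vehicle mice, 28.1 to 41.1 (median 34.7) with CORT and 54.3 to 72.1 (median 62.7) with CORT+ENZA. Parp14 was at 22.7 to 43.4 CPM (median 35.6) in vehicle mice, 17.6 to 26.2 (median 22.9) with CORT and 36.2 to 71.5 (median 42.7) with CORT+ENZA. In Parp9 and Parp12 the CORT+ENZA mice lay above all other mice of the arm. Their differences were 0.51 ± 0.08 and 0.61 ± 0.11 against vehicle and 0.60 ± 0.08 and 0.88 ± 0.11 against CORT, with -0.09 ± 0.08 and -0.27 ± 0.11 for CORT against vehicle, not called. In Parp14 CORT and vehicle overlapped, and CORT+ENZA lay above CORT. Parp14 changed by -0.63 ± 0.17 with CORT (adjusted p = 0.0127) and 1.04 ± 0.17 with CORT+ENZA against CORT.

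Of the 7 remaining members, 6 were called lower with CORT, with Ifi35 not called, and all 7 higher with CORT+ENZA against CORT. Xaf1, a promoter of apoptosis, was at 5.11 to 6.86 CPM (median 6.41) in vehicle mice, 1.21 to 3.14 (median 2.23) with CORT and 8.32 to 17.3 (median 9.40) with CORT+ENZA. Its 3 groups were separate (-1.44 ± 0.21 with CORT, adjusted p = 0.000101, and 0.73 ± 0.19 and 2.17 ± 0.21 with CORT+ENZA against vehicle and CORT). Rtp4, a chaperone of membrane receptors, was at 11.6 to 15.4 CPM (median 13.7) in vehicle mice, 4.45 to 9.26 (median 6.42) with CORT and 14.7 to 34.6 (median 18.5) with CORT+ENZA. Ifi44 was at 3.86 to 6.36 CPM (median 4.50) in vehicle mice, 0.576 to 2.33 (median 0.940) with CORT and 4.27 to 22.9 (median 5.14) with CORT+ENZA. In both genes CORT mice lay below all others of the arm, with -0.999 ± 0.19 and -2.06 ± 0.44 with CORT and 1.60 ± 0.19 and 2.84 ± 0.43 with CORT+ENZA against CORT. Epsti1 was at 1.38 to 2.37 CPM (median 1.56) in vehicle mice, 0.325 to 0.953 (median 0.744) with CORT and 0.939 to 5.20 (median 1.73) with CORT+ENZA. Lgals3bp, a secreted glycoprotein that binds galectins, was at 68.2 to 87.4 CPM (median 82.9) in vehicle mice, 43.3 to 55.0 (median 50.7) with CORT and 81.0 to 212 (median 92.2) with CORT+ENZA. Sp100, a protein of nuclear bodies, was at 6.28 to 9.87 CPM (median 8.30) in vehicle mice, 3.88 to 8.16 (median 4.44) with CORT and 6.12 to 16.3 (median 7.39) with CORT+ENZA. In Epsti1 and Lgals3bp the CORT mice lay below all vehicle mice, and in Sp100 they overlapped. With CORT the log2 fold changes of these 3 were -1.31 ± 0.37, -0.68 ± 0.18 and -0.68 ± 0.23, and none was called with CORT+ENZA against vehicle. Against CORT the values with CORT+ENZA were 1.60 ± 0.36, 1.17 ± 0.18 (adjusted p = 0.000358) and 0.78 ± 0.23. Ifi35 was at 21.0 to 27.3 CPM (median 23.9) in vehicle mice, 21.1 to 30.7 (median 22.05) with CORT and 31.8 to 38.7 (median 33.5) with CORT+ENZA. Its CORT mice overlapped the vehicle mice (-0.01 ± 0.09), and its CORT+ENZA mice lay above both groups (0.52 ± 0.09 and 0.52 ± 0.09). Rtp4 shares 13.6% of its stretches with Gm45338 and Ifi35 10.7% with Gm11626, so their levels are uncertain.

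Across the 3 chronic comparisons the members fell into a few patterns. In 12 members (Cmpk2, Herc6, Ifih1, Ifit1, Irf7, Mx2, Oasl1, Rsad2, Rtp4, Usp18, Xaf1 and Zbp1) CORT was called lower than vehicle and CORT+ENZA higher than both. In 19 members CORT was called lower and CORT+ENZA higher than CORT, but not different from vehicle. In 7 members (Ddx58, Dtx3l, Eif2ak2, Ifi35, Parp12, Parp9 and Samd9l) CORT was not called and CORT+ENZA was called higher than both. Bst2 was called only with CORT+ENZA against CORT and Trim25 only against vehicle. Some calls rested on single libraries. With CORT, Mx2 was not called without CORT mouse 1, 3, 26 or 27, vehicle mouse 10, 11 or 12 or CORT+ENZA mouse 17 (adjusted p up to 0.102). Sp100 was not called without any 1 of 13 libraries, namely CORT mice 1, 2, 3, 25 and 27, vehicle mice 10, 12, 13, 14 and 15 and CORT+ENZA mice 5, 6 and 17 (up to 0.101). Oas2 was not called without CORT mouse 1, 2, 3, 26 or 27 or vehicle mouse 12, 13, 14 or 15 (up to 0.0660). Oasl2 needed CORT mice 1 and 25 and vehicle mice 12 and 14 (up to 0.0593), Trim30a CORT mice 1 and 25 and vehicle mouse 14 (up to 0.0559) and Oasl1 CORT mouse 25 (0.0526). With CORT+ENZA against vehicle, Trim25 was not called without CORT+ENZA mouse 4, 6, 17 or 18 or vehicle mouse 10, 11, 12 or 14 (up to 0.0930). Cmpk2 needed vehicle mice 11, 12, 13 and 15 (up to 0.0625) and Rtp4 CORT+ENZA mouse 4 and vehicle mice 12, 13 and 14 (up to 0.0698), each beside mouse 18. Against CORT, Sp100 was not called without CORT mouse 1, 2, 3 or 25 or CORT+ENZA mouse 17 or 18 (up to 0.0765). These adjusted p are from edgeR's quasi-likelihood test.

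By the response element core, the 13 members whose windows hold it had a median log2 fold change of -1.44 with chronic CORT, and the 20 members with a window but no core had -0.69. With CORT+ENZA against CORT the medians were 1.86 and 1.14, and against vehicle 0.59 and 0.53. The ranges overlapped widely: members with the core included Ddx58 (0.00 with CORT) and Stat2, and those without it included Ifi44 (-2.06) and Irf7. These medians describe the members and were not tested.

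Mouse 18 was the highest of its group in 38 of 42 members, where it was the highest in 27.9% of all genes tested. It stood at 2.14 times the mean of the other 5 mice for Usp18, 2.38 times for Irf7, 3.09 times for Zbp1, 4.48 times for Ifi44 and 5.39 times for Oas3. For Ifi35 it stood at 1.05 times and for Irf9 at 1.11 times. The median coefficient of variation of the members in this group was 35.04%, against 13.9% over all genes, both with mouse 18 included. Without mouse 18 it was 13.8% for the members, and the value over all genes without that mouse was not computed. Markers of some other cells were also high in this mouse. The 10 Kupffer cell markers summed to 718 CPM in mouse 18 against 163 to 301 in the other 5, and the 4 monocyte markers to 26.2 against 6.44 to 8.23. The 8 T and NK cell markers summed to 6.30 against 0.739 to 2.04 CPM, and the 6 stellate cell markers to 556 against 232 to 347. The B cell, neutrophil, plasmacytoid dendritic cell, sinusoidal endothelial and cholangiocyte sums lay within the range of the other mice. The hepatocyte sum was the highest of the group, at 79654 CPM against 58164 to 72028. The part of these cells in the members' levels was not tested. Ifnb1, the gene of interferon beta, was at 0.110 CPM in mouse 18 and at up to 0.0528 CPM in the other mice of the group. Both values lay below the 0.153 to 0.195 CPM that a count of 0 allows in chronic libraries (3 counts).

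The ligands of the pathway were near the limit of detection. None of 21 interferon genes passed the filter in either arm. Their sum reached at most 0.110 CPM in a chronic and 0.167 CPM in an acute mouse, and all 21 were at 0 in all chronic CORT mice. Ifnb1 was at 0 in every acute mouse except 1 vehicle mouse at 0.0465 CPM. Of the receptor chains, Ifnar1 was at 33.3 to 44.3 CPM (median 37.4) in vehicle mice, 27.1 to 32.5 (median 30.2) with CORT and 28.7 to 36.6 (median 32.9) with CORT+ENZA. It was called lower with CORT (-0.33 ± 0.08, adjusted p = 0.00591) and not in the other chronic comparisons, while Ifnar2 was called in none (-0.13 ± 0.12 with CORT, adjusted p = 0.477).

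Nearby pathways moved in part with the members. Among 12 genes of class I antigen presentation, which interferons of both types induce, 9 were called lower with chronic CORT (H2-D1, Nlrc5, Psmb8, Psmb9, Psmb10, Psme1, Tap1, Tap2 and Tapbp). The median was -0.44, with Tap1, a peptide transporter, at -0.73 ± 0.13. Against CORT 10 were higher with CORT+ENZA, with a median of 0.52, and against vehicle Tapbp was higher and Tap2 lower. All 7 interferon gamma targets were lower with CORT (Ciita, Cd74, H2-Aa, H2-Ab1, Cxcl9, Cxcl10 and Irf8), with a median of -2.46. Against CORT 5 of them were higher with CORT+ENZA (median 1.66), led by the chemokine Cxcl10 at 3.29 ± 0.55, and against vehicle none was called (median -0.71). Without mouse 18 the median against vehicle was -1.35 and 5 were called lower (Cd74, Ciita, H2-Aa, H2-Ab1 and Irf8), where the members had a median of 0.37. Of 8 tested sensing genes outside the members, Ikbke was lower with CORT (-0.75 ± 0.13) and Ikbke and Tlr7 were higher with CORT+ENZA against CORT (0.78 ± 0.13 and 1.76 ± 0.46).

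Cell markers moved beside the members in the chronic arm. Of 10 Kupffer cell markers 3 were called lower with CORT (C1qa, Folr2 and Timd4, list median -0.79) and 3 higher with CORT+ENZA against CORT (C1qb, Cd5l and Folr2, list median 0.81). Without mouse 18 these counts were 6 (median -0.78) and 1 (C1qb, median 0.45). Their sum was 132 to 401 CPM with vehicle, 117 to 201 with CORT and 163 to 718 with CORT+ENZA. Of 3 tested monocyte markers Plac8 (-0.80) and Ccr2 (-1.95) were called lower with CORT, and both were called higher with CORT+ENZA against CORT (0.91, adjusted p = 0.0274, and 2.14, adjusted p = 0.0195), in the same directions as most members. Without mouse 18 Plac8 alone was called in the last comparison. Chil3 was called higher with CORT (2.38) and with CORT+ENZA against vehicle (3.64). All 4 tested B cell markers were lower with CORT (median -3.22) and with CORT+ENZA against vehicle (median -2.17), where the members were higher. No T and NK cell or plasmacytoid dendritic cell marker passed the filter. The T and NK sum was 2.23 to 3.05 CPM with vehicle and 0.342 to 1.10 with CORT, and the dendritic cell sum 0.345 to 2.87 and 0 to 0.244. Hepatocyte markers summed to 97809 to 115803 CPM with vehicle, 87761 to 122403 with CORT and 58164 to 79654 with CORT+ENZA. Alb and Ttr were called lower with CORT+ENZA than with vehicle, and Alb, Ttr and Hnf4a than with CORT. Hnf4a was called higher with CORT than with vehicle (0.27 ± 0.09) and was not called with CORT+ENZA against vehicle (-0.04 ± 0.09). With CORT 1 of 7 sinusoidal endothelial markers (Fcgr2b) and 1 of 6 stellate cell markers (Colec11) were called lower. The part of these cells in the members' changes was not tested.

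In the acute arm few members were called. Acute CORT against vehicle called 0 of 42 in either direction, where 1.62% of all 13733 genes were called, and the median was -0.14 against -0.01 over all genes, or -0.08 without vehicle mouse L19A. At an unadjusted p under 0.05 stood 4 members (9.52%), all lower (Irf1, Mx1, Mx2 and Xaf1), against 14.1% of all genes, and DESeq2 called 1 of them. Of 5 tested B cell markers 4 were called lower in the same comparison (list median -1.54). Irf1 was at 32.9 to 55.7 CPM (median 43.6) with vehicle and 21.1 to 40.2 (median 28.2) with CORT. These groups overlapped in 2 CORT mice, and the difference was -0.55 ± 0.16 (adjusted p = 0.0731 by edgeR and 0.0292 by DESeq2). By edgeR it was called with a term for the 6 sets of consecutive mouse numbers (-0.56, adjusted p = 0.0458), and without vehicle mouse L13A (-0.62, adjusted p = 0.0481), CORT mouse L14A (-0.66, 0.0321) or ENZA mouse L29A (-0.55, 0.0361), which enters the shared estimate of spread.

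Acute ENZA against vehicle called 2 members higher, where 0.845% of all genes were called higher. The median was 0.28 against 0.00 over all genes, 34 of 42 lay above 0, and 15 (35.7%) had an unadjusted p under 0.05, against 14.6% of all genes. Ddx58 was at 29.8 to 34.2 CPM (median 31.7) with vehicle and 37.3 to 44.9 (median 41.2) with ENZA. Every ENZA mouse lay above every vehicle mouse, and the log2 fold change was 0.38 ± 0.08 (adjusted p = 0.0129). Samd9l was at 11.1 to 17.2 CPM (median 12.6) and 14.0 to 21.5 (median 18.9). The groups overlapped, and its call (0.50 ± 0.13, adjusted p = 0.0473) was lost in 14 of 24 fits that left out 1 library, namely vehicle mice L1A, L7A, L13A, L25A and L31A, ENZA mice L5A, L11A, L23A, L29A and L35A, CORT+ENZA mice L6A, L18A and L30A and CORT mouse L8A, with an adjusted p of up to 0.117, without L29A. It was also lost with the term for sets of mouse numbers (adjusted p = 0.0681). Zbp1 had the largest value (0.94 ± 0.28, adjusted p = 0.0970), with 7.85 to 14.3 CPM in 5 ENZA mice and 37.9 in L29A, and without that mouse it was 0.41 (adjusted p = 0.251). DESeq2 called 7 members higher, adding Herc6, Ifih1, Oasl1, Parp12 and Zbp1, where it called 240 of all 13733 genes higher.

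L29A was the highest of its group in 31 of 42 members, against 22.6% of all genes. Irf7 was at 130.3 CPM in this mouse and 37.7 to 68.7 in the other 5. Oasl2 was at 23.5 CPM against 8.06 to 10.2. Rsad2 and Ifit1 were at 8.597 and 13.3 CPM, within the range of the others (7.08 to 11.6 and 9.65 to 15.5). The 7 interferon gamma targets summed to 909 CPM in L29A against 73.2 to 119, the class I genes to 7039.6 against 2891 to 4045, and the Kupffer cell markers to 734 against 194 to 309. Monocyte markers summed to 16.4 CPM in L29A against 5.07 to 6.77, and T and NK cell markers to 8.97 against 1.29 to 3.98. Its B cell and neutrophil sums were also the highest of the group, while its stellate cell, cholangiocyte and hepatocyte sums were the lowest. The plasmacytoid dendritic cell and sinusoidal endothelial sums lay within the range of the others. The part of these cells was not tested. In mouse 18 the gamma targets summed to 206 CPM against 36.2 to 59.4, and the class I genes to 3328 against 2968 to 3700.3. In mouse 18, in contrast, Rsad2 and Ifit1 were the highest of the group, and both mice had high Irf7, Zbp1, Oasl2 and Kupffer, monocyte and T and NK cell markers. Without L29A the median with ENZA was 0.17, 28 of 42 members lay above 0, and 11 had an unadjusted p under 0.05, against 12.9% of all genes. In that fit Ddx58 was called (0.36, adjusted p = 0.0407).

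With acute CORT+ENZA the members stood near vehicle and near CORT. Against vehicle 0 of 42 were called, where 2.47% of all genes were called, with a median of -0.10. Without vehicle mouse L19A this median was above 0, at 0.0076. At an unadjusted p under 0.05 were 2 members (4.76%; Trim30a and Mx2), against 16.1% of all genes. Against CORT 0 were called, where 0.175% of all genes were called, with a median of 0.05, which lay between 0.02 without CORT+ENZA mouse L6A and 0.13 without CORT mouse L8A. Again 2 members (Zbp1 and Ddx58) had an unadjusted p under 0.05, against 5.07% of all genes. DESeq2 and limma-voom called 0 in both comparisons as well. Zbp1 was at 4.34 to 6.70 CPM (median 5.53) with CORT and 6.78 to 13.2 (median 9.41) with CORT+ENZA. The groups did not overlap, and the difference of 0.78 ± 0.29 had an adjusted p of 0.701, or 0.0184 in the fit without L29A.

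Against acute ENZA, CORT+ENZA called 3 members lower, where 0.728% of all genes were called lower. The median was -0.34, 39 of 42 lay below 0, and 19 (45.2%) had an unadjusted p under 0.05, against 14.9% of all genes. Without L29A the median was -0.18, 33 lay below 0, and 12 had an unadjusted p under 0.05, against 13.1% of all genes. Ifi44 was at 3.77 to 7.996 CPM (median 4.64) with ENZA and 2.34 to 3.31 (median 2.88) with CORT+ENZA. Cmpk2 was at 5.08 to 8.22 CPM (median 7.05) and 2.702 to 5.11 (median 3.88). Ddx58 was at 37.3 to 44.9 CPM (median 41.2) and 29.2 to 40.8 (median 32.5). Ifi44 did not overlap, and in Cmpk2 and Ddx58 1 CORT+ENZA mouse each reached the ENZA range. The log2 fold changes were -0.78 ± 0.17 (adjusted p = 0.0156), -0.86 ± 0.22 (adjusted p = 0.0395) and -0.31 ± 0.08 (adjusted p = 0.0335). Without L29A Ifi44 alone was called (-0.60, adjusted p = 0.0423). Cmpk2 lost its call without any 1 of 9 libraries (ENZA mice L17A, L23A, L29A and L35A and CORT+ENZA mice L12A, L18A, L24A, L30A and L36A, adjusted p up to 0.104). Ddx58 also lost it without any 1 of 9 (ENZA mice L5A, L11A, L23A, L29A and L35A and CORT+ENZA mice L6A, L12A, L18A and L36A, up to 0.0914). With the term for sets of mouse numbers Cmpk2 (adjusted p = 0.0547) and Ddx58 (0.0541) were not called, and Ifi44 was (0.0255). In other fits 8 members were called lower by limma-voom and 6 by DESeq2, where 290 and 220 of all 13733 genes were called lower. The interferon gamma targets had a median of -1.48 in this comparison, or -0.25 without L29A, and none was called in either fit.

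The acute interaction asks whether ENZA and CORT together differ from the sum of both effects. It called 0 of 42 members, where 0% of all genes were called, with a median of -0.19, or -0.08 without L29A. An unadjusted p under 0.05 was found for 2 members (4.76%; Cmpk2 and Ifi44) and 3.65% of all genes, and DESeq2 and limma-voom called 0 members.

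The effects of both arms were compared in a fit of all 42 libraries. The effect of CORT was called lower in the chronic than in the acute arm for 15 of 42 members and higher for 0, where 2.44% of 14138 genes were called lower. The median difference was -0.82 against 0.01 over all genes. Usp18 showed the largest, -2.44 ± 0.31 (adjusted p = 2.47e-06). In acute mice it stood at 8.07 to 16.4 CPM (median 12.8) with vehicle and 12.2 to 17.5 (median 15.9) with CORT, a change of 0.26 ± 0.17 (adjusted p = 0.516) where the chronic change was -2.21. Irf7 showed -1.46 ± 0.33 (adjusted p = 0.00531). Among the acute mice it was at 36.8 to 65.9 CPM (median 46.4) with vehicle and 40.5 to 56.0 (median 46.7) with CORT, which overlapped. Without chronic CORT mouse 1, or without mouse 25, 9 members were called in place of 15.

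The effect of adding ENZA to CORT was called higher in the chronic than in the acute arm for 31 of 42 members and lower for 0, where 0.905% of all genes were called higher, with a median of 1.33 against -0.02 over all genes. The difference was 3.04 ± 0.31 for Usp18 (adjusted p = 4.58e-08), 2.68 ± 0.33 for Irf7 (adjusted p = 3.38e-06), 2.71 ± 0.42 for Rsad2 (adjusted p = 0.000130) and 3.29 ± 0.59 for Oas3 (adjusted p = 0.000693). Rsad2 was at 3.37 to 10.5 CPM (median 5.05) with acute CORT and 4.77 to 10.8 (median 6.51) with acute CORT+ENZA, which overlapped, whereas the chronic groups were separate. Members whose difference was not called include Ddx58 (0.43 ± 0.12, adjusted p = 0.0674), Stat2, Irf1 and Trim25. Without mouse 18 there were 29 called members and the median was 1.01. By role, the effectors had 15 of 17 called and a median of 1.92, and the regulators 3 of 5 and a median of 0.82. Because the kits differed by arm, these differences cannot be told apart from an effect of extraction.

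**Figure D4:**
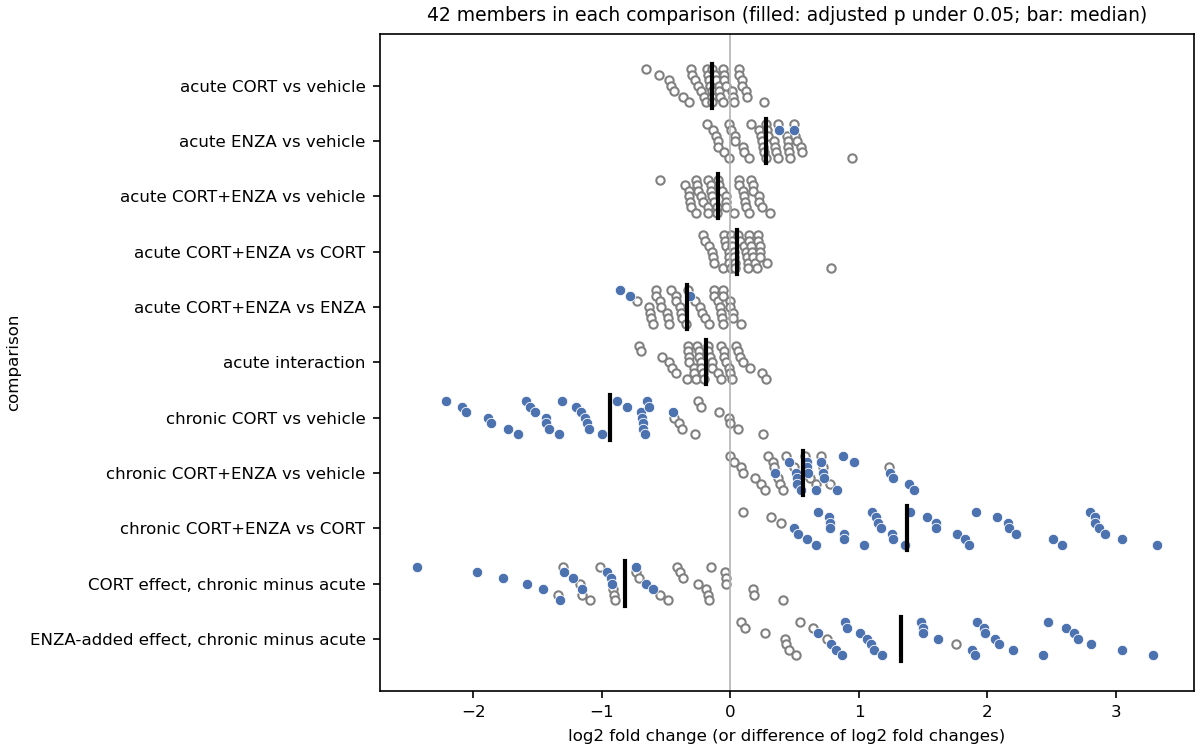
Log2 fold changes of the 42 members in each of the 11 comparisons, with called members filled and the median as a bar. The acute medians lie between -0.34 and 0.28, and the chronic medians at -0.94, 0.56 and 1.38.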

How the data were processed

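Liver mRNA of 42 mice was sequenced, and the authors deposited raw counts per gene for the acute and the chronic arm. Per the submitters' processing notes, reads were handled with STAR 2.7.3a, HTSeq 0.12.4, FastQC and MultiQC, and the build was mm10. The sources used here give no strand setting or annotation release. The 5 HTSeq summary lines were left out of library sizes. Groups came from the labels. Genes were kept by edgeR's filterByExpr (minimum count 10, minimum total 15), scaled by TMM and tested with edgeR 4.0.16's robust quasi-likelihood test (R 4.3.3), with all groups of an arm in 1 fit and Benjamini-Hochberg adjustment over all genes. Differences between arms came from 1 fit of all libraries. The score used log2 CPM with a prior count of 2. The intervals a count of 0 allows cover counting error only.

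The edgeR fit of chronic CORT against vehicle was tried on counts simulated from the chronic arm. The other comparisons and methods were not tested in this way. Alternatives were DESeq2 1.42.0, limma-voom (limma 3.58.1) with quality weights, RLE size factors, other filters, fewer groups, left-out libraries and a term for acute mice of consecutive numbers. Values are given for members called in any comparison and 12 always named. Members and lists were chosen with earlier results of these data known. Promoters are RefSeq sequences (GRCm38.p6). Shared stretches are 50-base runs of a gene's longest transcript found in other genes. Of the pathway and marker lists, 2 genes are not reported here.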

Additional observations from a re-analysis of the deposited data

Results flagged for a closer look

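Among 91 groups of 6 mice (the score and the 12 members with full values), a mouse was listed when its gap to the nearest other exceeded 0.625 of the group's range, Dixon's limit. By chance about 1 in 20 groups would be listed. Over all 42 members 58 of 294 member groups were listed, 30 of them for mouse 18 and 12 for L29A. Mouse 18 of the chronic CORT+ENZA group was far above the others in the score (5.021), Usp18 (36.26 CPM), Irf7 (182.5 CPM), Ifit1 (41.69 CPM), Isg15 (32.76 CPM), Oasl2 (21.36 CPM), Rsad2 (46.29 CPM), Zbp1 (21.75 CPM) and Lgals3bp (211.6 CPM). Mouse L29A of the acute ENZA group was far above the others in Irf7 (130.3 CPM), Irf1 (64.94 CPM), Oasl2 (23.48 CPM) and Zbp1 (37.85 CPM). Acute CORT mouse L14A was far below its group in Stat2 (69.68 CPM), and acute CORT+ENZA mouse L36A far above it in Isg15 (9.649 CPM).

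Effects that differed between the arms by edgeR's test of the difference itself follow, on the log2 scale as chronic minus acute. The CORT effect differed by -2.438 for Usp18, -1.462 for Irf7, -0.5994 for Irf9, -1.223 for Isg15 and -0.7359 for Lgals3bp. The effect of ENZA added to CORT differed by 3.043 for Usp18, 2.677 for Irf7, 0.8214 for Irf9, 2.608 for Ifit1, 2.058 for Isg15, 1.919 for Oasl2, 2.705 for Rsad2, 1.976 for Zbp1 and 1.121 for Lgals3bp. Arm and extraction kit cannot be told apart in these values. The call of Irf9 for the CORT effect was lost without acute CORT mouse L8A or chronic CORT mouse 25 (adjusted p up to 0.0538), and that of Isg15 without any 1 of 10 libraries (adjusted p up to 0.0697). Those libraries were acute vehicle mice L7A, L13A and L31A, acute CORT mice L8A and L26A, chronic vehicle mouse 10 and chronic CORT mice 1, 25, 26 and 27.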

How the results depend on the processing

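Counts of called members in the 3 chronic comparisons stayed within 1.5 times the reported ones under every alternative, and no called fold change of a member changed sign. With single libraries left out, 26 to 32 members were called lower with chronic CORT, 17 to 22 higher with CORT+ENZA against vehicle and 38 to 39 against CORT. The acute counts were small and moved. For acute CORT against vehicle, DESeq2 and a term for sets of consecutive mouse numbers gave 1 lower, and leave-one-out fits 0 to 1. For acute ENZA, DESeq2 gave 7 higher, the sets 1, only the groups compared 1, and leave-one-out fits 1 to 3. For acute CORT+ENZA against CORT, leave-one-out fits gave 0 to 1 higher. Against ENZA, DESeq2 gave 6 lower, limma-voom 8, no low-count filter 1, the sets 1, the fit without L19A and L36A 6, and leave-one-out fits 1 to 4. DESeq2 and limma-voom also called more of all genes than edgeR in these acute comparisons. The cause was not tested. For the CORT effect between arms, limma-voom gave 26 lower and leave-one-out fits 9 to 21. The median difference of the ENZA-added effect was 1.01 without mice 11 and 18, and 1.01 to 1.40 over leave-one-out fits.

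Of 141 called values, 18 lost their call without the low-count filter, which tests more genes, 1 with limma-voom (Trim25), and 0 with RLE size factors or the stricter filter. DESeq2 gave an adjusted p for 139 of them, and 0 lost their call. Without mice 11 and 18, 6 of 136 lost it, without L19A and L36A 1 of 51, and with only the groups compared 5 of 94. With the term for mice of consecutive numbers, which can be fitted to the acute arm alone, 3 of 5 lost it (Samd9l, Cmpk2 and Ddx58). In leave-one-out fits 23 of the 141 lost it at least once. Each set of consecutive acute numbers holds 1 mouse of each group, in the same order. The labels name no sets, so whether the sets reflect a pairing in the design cannot be told from them. Members below 1 CPM, such as Oas3 (0.159 to 0.433 CPM) and Mx1 (0.157 to 0.758 CPM) with chronic CORT, rest on few reads, and their fold changes have the widest errors.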
